A study of Homo sapiens with 13 samples.

Results

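The genes described here are the olfactory receptor genes of human chromosome 11. They were chosen as the protein-coding RefSeq genes of that chromosome (build GRCh38) whose symbol is OR followed by digits, letters and digits, and 171 of 20056 protein-coding genes met this rule. Of these, 168 have a place on the chromosome and 3 (OR8U8, OR8U9 and OR9G9) carry positions of another sequence, so those 3 were left out. A group of neighbours at most 500 kb apart was called a cluster, and the 168 genes fell into 11 clusters that span 5.86 Mb in all, 8 of them with 3 or more genes. The genes overlapped 166 of the 151538 windows of 20 kb over which DNA replication was measured, each window being counted once.

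Olfactory receptors are G protein-coupled receptors that bind odorants at the surface of sensory neurons of the nose. They form the largest gene family of the human genome. Each sensory neuron expresses a single receptor allele, while the clusters are packed in closed chromatin and are silent in nearly all other cells. Chromatin of this kind is typically copied late in S phase and holds few replication origins, so forks that start outside can travel far through it. Class I receptors (families 51, 52, 55 and 56), which resemble those of fish, lie in a single human cluster on chromosome 11 that also surrounds the beta-globin genes and several TRIM genes. Class II receptors make up the rest.

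The cells were PC9, an established line of human non-small cell lung cancer with an activating EGFR mutation, and osimertinib is an inhibitor of EGFR. TrAEL-seq ligates an adaptor to free 3′ ends of DNA, which in dividing cells come mostly from replication forks, and the strand of each read follows the direction of the fork. The 13 libraries came from untreated PC9 (3), from PC9 kept in 500 nM osimertinib for 7 days (2), 14 days (2) or 28 days (4), and from resistant lines 5 and 10 (1 library each), each of which was grown from a single-cell clone under 500 nM osimertinib and was still in the drug when taken. Untreated cells and resistant lines were harvested while growing, whereas the day 28 cultures did not proliferate. Drug was dissolved in DMSO, and the untreated group is labelled only as untreated. Whether replicates are separate cultures is not stated, and p-values may therefore reflect technical spread alone. Each resistant line is 1 clone. Since the assay reads DNA ends and no RNA, the cell type and the silence of the receptors were not checked here.

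The value given for each window is its polarity, the strand difference as a percentage of the reads, from -100 to 100. Positive polarity is taken here as forks that move toward higher coordinates, because untreated polarity rose more steeply along the genome than it fell. Over 60 kb, the outermost 0.5% of changes began at 118 points among rises and at -80.1 points among falls. This choice was made with the data in view. A turned sign would exchange rises with falls and leave all sizes and all shifts toward 0 as they are.

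Day 28 replicates 3 and 4 carry a treatment label of 7 days and were kept at day 28 by their titles. Depth is unknown, since the values come without read counts. The untreated and resistant libraries and day 28 replicates 2 and 3 had a value in 100% of the receptor windows, against 60.2% for day 7 replicate 1 and 88.0% to 99.4% for the remaining libraries. In the class I cluster day 7 replicate 1 had values in 20 of 54 windows. A value in all 13 libraries, which the test required, was present in 82 receptor windows (49.4%, against 53.0% of all windows), and 85 of the 168 genes lay in at least 1 of them. The 83 genes without a tested window are described below from untreated values alone or from 100 kb bins. A gene of the median length of 1103 bp fills only a small part of a window, and 47 windows held more than 1 receptor gene, so a window's value belongs to the region and not to a single gene.

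The sequences upstream of 4 receptor genes are shown, because their windows changed at day 28 from positive (OR4A47 and OR2D2) and from negative polarity (OR5A2 and OR52W1). Each is the 250 bases before the start of the gene model, 5′ to 3′ on the gene's strand, from RefSeq (GRCh38.p14). Many receptor models appear to hold the coding sequence alone (83 of 135 are a multiple of 3 bases long), so the start of the model need not be the start of transcription and these stretches need not be promoters. OR4A47 lies on the plus strand (chr11:48488543-48488792), OR5A2 on the minus strand (chr11:59426414-59426663), OR52W1 on the plus strand (chr11:6198974-6199223) and OR2D2 on the minus strand (chr11:6892501-6892750). Capitals mark TATAAA, the core of a TATA box, on either strand (TTTATA when read from the other strand), and TAATTA, a core that homeodomain proteins bind.
OR4A47: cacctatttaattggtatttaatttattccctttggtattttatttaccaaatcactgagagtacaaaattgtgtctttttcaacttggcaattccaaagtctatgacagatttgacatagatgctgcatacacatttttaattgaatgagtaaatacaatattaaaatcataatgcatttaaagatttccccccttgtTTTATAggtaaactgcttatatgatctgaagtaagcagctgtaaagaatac
OR5A2: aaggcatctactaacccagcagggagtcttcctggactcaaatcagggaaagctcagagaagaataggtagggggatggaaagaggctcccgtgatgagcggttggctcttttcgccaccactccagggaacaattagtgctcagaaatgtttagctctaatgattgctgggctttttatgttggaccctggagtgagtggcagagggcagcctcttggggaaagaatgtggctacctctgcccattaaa
OR52W1: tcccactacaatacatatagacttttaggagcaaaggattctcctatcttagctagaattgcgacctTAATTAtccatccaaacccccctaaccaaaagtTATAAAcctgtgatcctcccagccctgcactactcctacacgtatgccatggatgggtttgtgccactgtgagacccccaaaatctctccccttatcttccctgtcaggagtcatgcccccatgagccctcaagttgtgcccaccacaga
OR2D2: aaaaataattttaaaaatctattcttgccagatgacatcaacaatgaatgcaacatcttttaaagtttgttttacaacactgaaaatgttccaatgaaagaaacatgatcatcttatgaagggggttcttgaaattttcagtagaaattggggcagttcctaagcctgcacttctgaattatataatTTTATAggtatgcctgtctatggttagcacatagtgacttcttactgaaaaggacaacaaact

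The A+T content of these stretches was 70.8% at OR4A47, 49.6% at OR5A2, 52% at OR52W1 and 68% at OR2D2. Upstream sequences were found for 135 of the 171 genes. Their median A+T content was 63.6% (range 42.4% to 77.2%), against 37.6% over the same stretch of 15843 protein-coding genes, with medians of 60% in class I and 64% in class II. The median receptor stretch held 1 CpG, the dinucleotide that clusters in the promoters of widely expressed genes, against 17 over all genes, and 48 (35.6%, against 3.13%) held 0. TATAAA was present on either strand in 45 (33.3%, against 9.23% of all) and the palindrome TAATTA in 31 (23%, against 3.14%). OR5A2 held none of these motifs, OR4A47 and OR2D2 held TATAAA, and OR52W1 held both TATAAA and TAATTA. A match of letters is a description and not evidence of a bound factor, and gene models that start at different points make the shares over all genes a rough measure.

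In untreated cells most receptor windows had a strong fork direction. The mean of the 3 untreated libraries was positive in 74 windows and negative in 92, and ran from -92.6 to 94.8. In 91 of the 166 windows (54.8%) the polarity exceeded 50 in size, which means that reads of 1 strand clearly prevailed. The same held for 33.3% of all windows, 33.9% of the other windows of chromosome 11 and 49.2% of the windows over olfactory receptor genes of other chromosomes. The median size was 53.7 for the chromosome 11 receptors, 34.2 for all windows, 34.6 for the rest of the chromosome and 49.6 for receptors elsewhere. Windows near balance, under 20 in size, made up 18.7% of receptor windows and 31.5% of all windows. The sign was the same in all 3 untreated libraries in 128 receptor windows (77.1%, against 68.9% of all). Class I and class II windows had the same median of 53.7, over 54 and 112 windows. These shares describe the regions and were not tested, because neighbouring windows are crossed by the same forks.

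The 11 clusters differed in the pattern of forks. The class I cluster holds 55 genes between OR52B4 and OR52W1 (chr11:4367263-6200186) and 54 receptor windows. Its untreated polarity began positive, with a maximum of 85.7 ± 3.0 (SD, n = 3) at OR51E1 and 67.6 ± 9.7 at OR51E2, whose product is a receptor for short-chain fatty acids that is also found in prostate. It then fell below 0 for a run of 680 kb, rose again at OR52B6 and fell to -92.6 ± 12.8 in the first of the windows over OR52W1 and -88.0 ± 10.9 in the last. The smoothed profile changed sign 3 times. The 3 windows over the beta-globin genes, which lie inside this cluster, had no value in at least 1 library and were not tested.

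**Figure D1:**
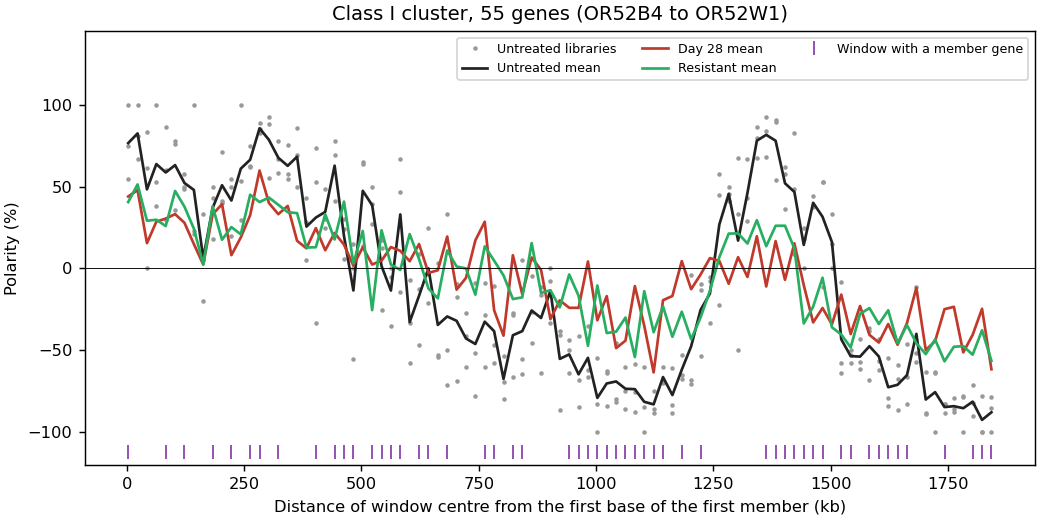
Polarity (%) of each 20 kb window along the class I cluster, against the distance of the window centre from the first base of OR52B4 in kb. Grey dots are the 3 untreated libraries, lines are the means over libraries with a value for untreated (black), day 28 (red) and resistant (green), and purple ticks mark windows with a receptor gene; the black line falls, rises and falls again, while the red line stays nearer 0 through most of the cluster.

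The largest class II cluster behaved otherwise. It holds 46 genes between OR4A16 and OR5AK2 (chr11:55343201-56989843), on the long arm near the centromere. Here the median size of untreated polarity was 21.2 over 43 windows, and 21 of the 43 were under 20 in size. From OR4A16 to the OR5T genes the window means stayed between -28.5 and 26.0, apart from a dip to -55.0 ± 14.6 at OR4S2 and -32.2 ± 15.6 at OR4C6. Polarity then became more negative toward OR5AP2, where the 3 untreated libraries had -93.1, -86.7 and -79.4. The highest tested window, at OR5T1, had 25.9, 48.6 and -10.8, so its libraries did not share a sign. In 100 kb bins, which average at least 3 of 5 windows, the untreated mean was 14.2 ± 1.8 (SD, n = 3) at OR4A16 and OR4A15 and 1.3 ± 12.2 at OR5W2, OR5I1, OR10AG1 and OR5F1. It was -22.7 ± 3.7 at OR8K3 and its neighbours (OR8K3 is a receptor that responds to menthol), then -46.6 ± 15.4 at OR8U3, -62.2 ± 4.7 at OR5M11, -75.9 ± 9.1 at OR5M1 and -81.3 ± 8.7 at OR9G1. The libraries at OR8U3 overlapped those at OR5M11, and those at OR5M1 overlapped those at OR9G1, whereas OR8K3 overlapped none of these bins.

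**Figure D2:**
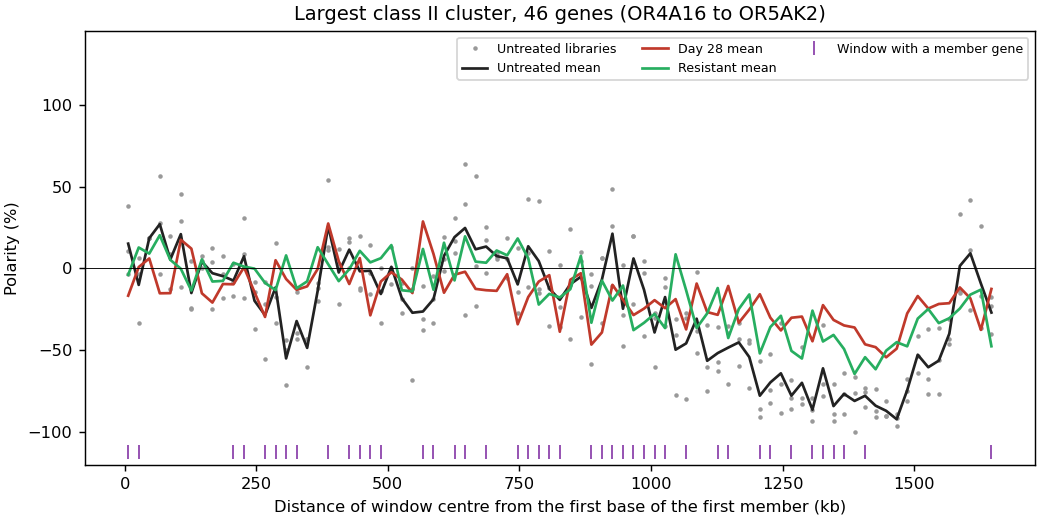
Polarity (%) of each 20 kb window along the largest class II cluster, against the distance of the window centre from the first base of OR4A16 in kb, drawn as for the class I cluster. Untreated polarity stays near 0 over most of the first genes, with a dip at OR4S2, and falls to between -93.1 and -79.4 at OR5AP2, and the day 28 mean is nearer 0 over the negative stretch.

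The small cluster of OR4 genes on the other side of the centromere stood at the opposite extreme. Its 7 genes, OR4B1 to OR4A47 (chr11:48216810-48489722), lie in 7 windows that were all positive, with untreated means from 89.6 to 94.8 and a median of 92.1. The cluster with the next highest median size, OR5AN1 to OR10V1, had 80.7. The cluster of 8 genes from OR2AG2 to OR2D3 (chr11:6765626-6921994) was also positive throughout, from 53.9 ± 14.2 at OR2D2 to 88.3 ± 6.7 at OR2AG2. The 4 genes from OR5P2 to OR10A3 (chr11:7795974-7941708) were negative throughout, from -70.4 at OR5P3, a receptor for coumarin, to -32.3 at OR10A3.

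The 3 other clusters of 3 or more genes crossed 0. From OR9Q1 to OR5B21 (13 genes, chr11:58023881-58508105) the untreated mean went from 81.0 ± 12.4 at OR9Q1 to -47.9 ± 12.7 at OR5B12. From OR5AN1 to OR10V1 (8 genes, chr11:59358895-59713845) it was negative in 8 of 9 windows, with -87.1 ± 9.0 at OR5A1, a receptor for beta-ionone, and turned positive only at OR10V1, with 56.9 ± 10.3. From OR6X1 to OR8A1 (22 genes, chr11:123753580-124571374) it fell from 88.0 ± 15.9 at OR6X1 to -88.8 ± 4.2 at OR8A1, and the sign changed once, between OR10D3 and OR8G1. In that last cluster 16 of 21 windows exceeded 50 in size, but only 2 had a value in every library. The remaining clusters were OR4C13 with OR4C12, OR4C46 with OR4A5, and OR2AT4, which encodes a sandalwood odorant receptor also known from skin.

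Places where polarity rises through 0 mark initiation zones, from which forks leave in both directions, and places where it falls through 0 mark zones where forks meet. Of 3539 initiation and 3034 termination zones called from the untreated libraries, 5 and 4 overlapped the receptor clusters. Those at OR10A3, OR5B21, OR10V1 and OR2AT4 reached beyond the ends of their clusters. The initiation zones were at OR52B6, OR10A3, OR5D3, OR5B21 and OR10V1. The termination zones were at OR52E4, OR5B17, OR2AT4 and OR8G5. The zone at OR10V1 (chr11:59480001-59820000) had a rise of 174, 173 and 159 points in the untreated libraries, and the shallowest, at OR5D3 inside the flat cluster, had 28.2, 34.7 and 38.9. Because the zones were chosen on these untreated values, the rises are a description.

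The strand of transcription is known for 135 of the 171 genes, 72 on the plus and 63 on the minus strand. In untreated cells 76 of them (56.3%) were read in the direction in which forks moved, under the sign chosen above, against 53.2% of 15523 protein-coding genes. Among genes with polarity over 50 in size the share was 40 of 63 (63.5%), against 54.2% of all, while receptors of other chromosomes had 37 of 90 (41.1%). With the sign turned, the shares would be 43.7% against 46.8%, and over 50 in size 36.5% against 45.8% of all and 58.9% of receptors elsewhere. Neighbouring genes share a fork direction, so these shares carry no test.

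The first question was whether fork direction at the receptor genes changed by day 28, when the cultures had stopped dividing. It moved toward 0 at all 14 of the 82 tested windows that changed (17.1%; 11.5% of all 80351 tested windows changed), at an adjusted p under 0.05 with limma. Polarity became higher in 6 (5.85% of all windows) and lower in 8 (5.62% of all). Over the genome, 9212 of the 9213 windows that changed also moved toward 0. At an unadjusted p under 0.05 there were 33 of 82, against 32.1% of all windows. The median difference was 31.4 points in size, against 26.8 over all tested windows. These shares lie near those of the genome and are not read as particular to the receptors. Each of these 14 windows had untreated means over 50 in size, and of the 45 tested receptor windows over 50, all 45 had a day 28 mean nearer to 0 (99.9% of such windows over the genome), 3 of them with the opposite sign (6.67%, against 5.83%). Those windows were selected on the untreated values, which favours a shift toward 0.

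In the OR4 cluster 5 of 7 windows changed. At OR4A47 (chr11:48480001-48500000) the untreated libraries had 80.6, 88.2 and 100.0, and the day 28 libraries had -7.7, -11.8, 40.0 and 15.8. No day 28 library reached an untreated one, and the 4 day 28 libraries lay on both sides of 0. The difference was -80.5 ± 17.5 points (SE; adjusted p = 0.0289, limma), the largest fall among receptor windows. At OR4C3 (chr11:48320001-48340000), the most polar receptor window, untreated libraries had 94.6, 96.4 and 93.5 and day 28 libraries 40.0, 16.3, 40.2 and 71.4. All day 28 values stayed positive there and below every untreated value, with a difference of -52.9 ± 16.5 points (SE; adjusted p = 0.0405, limma). OR4X1, OR4S1 and OR4C5 also fell, with day 28 means of 36.0, 45.4 and 32.5. With libraries scaled to 1 amplitude together with array weights, the differences at OR4X1 and OR4S1 turned to 21.4 and 27.4. Scaling multiplies a library's values without a bound, so scaled values can pass 100. These signs are therefore not read as a rise in measured polarity. Over 19 other ways of processing, those at OR4C3 and OR4C5 came as near to 0 as -0.615 and -0.668. OR4B1 at the edge of the cluster went from 91.7 ± 10.3 to 41.3 ± 11.3 and did not pass (adjusted p = 0.060, limma).

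At the musk and ionone receptors on the other side of the centromere, 3 windows with strongly negative polarity rose toward 0. At OR5A2 (chr11:59420001-59440000) the untreated libraries had -88.9, -79.7 and -73.3, and the day 28 libraries had 6.7, -11.5, -38.9 and 20.0. The groups did not overlap, and 2 day 28 libraries were positive. The rise was 74.7 ± 17.5 points (SE; adjusted p = 0.0289, limma). Its neighbour OR5A1 rose by 62.8 ± 18.3 points (adjusted p = 0.0347, limma; -8.73 with scaling and array weights). The changed window of OR5AN1 (chr11:59360001-59380000), a receptor for the odorant muscone, went from -82.4 ± 25.6 (SD, n = 3) to -28.6 ± 23 (SD, n = 4). The window before it (chr11:59340001-59360000), which also overlaps OR5AN1, went from a mean of -39.7 to -32.9. It did not pass (difference 6.78 ± 19.7 points, SE; adjusted p = 0.84, limma).

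In the class I cluster 2 of 11 tested windows changed, both near its end of higher coordinates. At OR52W1 (chr11:6180001-6200000) the untreated libraries had -100, -100 and -77.8, and those of day 28 had 0.0, -36.8, -28.6 and -33.3. All untreated values were lower than all day 28 values, and the difference was 67.9 ± 18.2 points (SE; adjusted p = 0.0304, limma). The next window, which also overlaps OR52W1, went from -88.0 ± 10.9 to -61.7 ± 27 and did not pass (adjusted p = 0.29, limma), with day 28 libraries from -100 to -38.5. OR56B4 went from -84.7 ± 3.3 to -24.9 ± 16.8 (adjusted p = 0.0400, limma).

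The 4 other windows lay in 4 clusters. OR2D2 fell from 53.9 ± 14.2 to -12.1 ± 44.8 (adjusted p = 0.0499, limma), with day 28 libraries at -71.4, 12.5, 30.6 and -20.0. Of the 9 tested windows over OR9Q1 only 1 passed (chr11:58140001-58160000), which fell from 75.5 ± 8.5 to 15.4 ± 14.9. The OR9Q1 window of highest untreated mean went from 81.0 ± 12.4 to 41.7 ± 11.7 and did not pass (adjusted p = 0.11, limma). OR5P3 rose from -70.4 ± 10.0 to -3.7 ± 39.2. At OR4D5 (chr11:123920001-123940000) the untreated libraries had 100.0, 88.2 and 52 and those of day 28 had -81.8, 27.3, 33.3 and 33.3. A single day 28 library was far below the others there, although all 4 were below the untreated ones, and the difference was -77.0 ± 22.2 points (SE; adjusted p = 0.0338, limma).

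**Figure D3:**
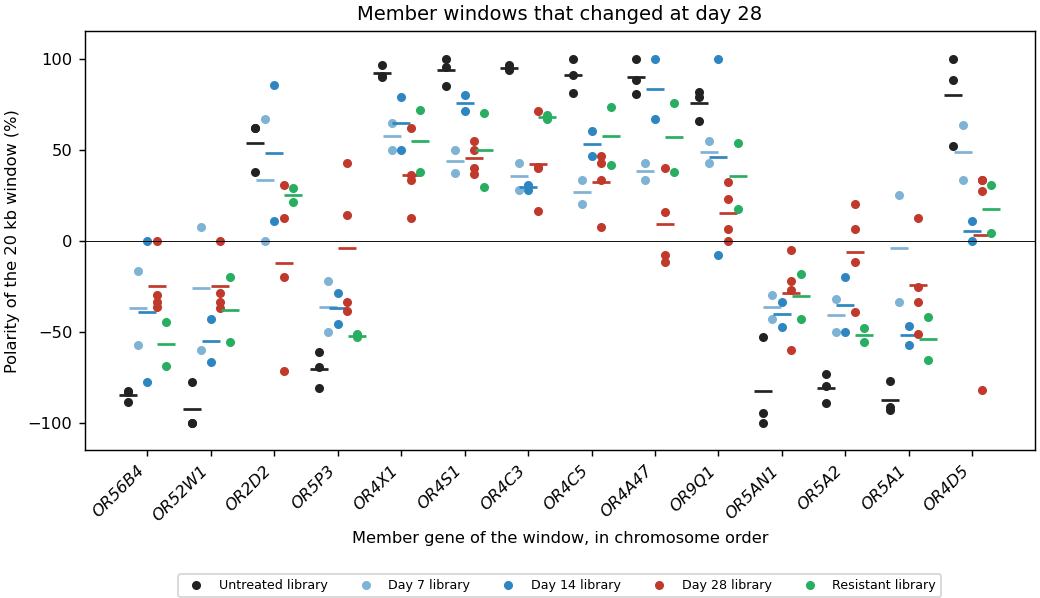
Polarity (%) in each library for the 14 receptor windows that changed between untreated and day 28, in chromosome order, with 1 gene named per window. Points are libraries and short lines are group means; untreated points lie far from 0 on either side and day 28 points between them and 0 or past it, with the low day 28 point of OR4D5 at -81.8.

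None of the 30 tested windows of the largest class II cluster passed at day 28. At OR5AP2, its most negative window, the day 28 libraries had -84.6, -25.0, -45.5 and -23.1 beside the untreated -93.1, -86.7 and -79.4. Day 28 replicate 1 lay among the untreated libraries there while the other 3 were nearer 0 (adjusted p = 0.17, limma).

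These counts rest on windows with a wide spread. Libraries were also simulated with known shifts at day 28. The 20 kb test then found 0 of 100 shifts of 30 points and 0 of 100 of 60 points. In 100 kb bins it found 9 and 99. Bins are given next to the windows for every comparison. The simulation shifted few windows, all of smaller untreated polarity than the 14 changed ones, and left the others unchanged. It also gave each library the same spread in every window. In the data the untreated SD differed between windows, with 1.4 at OR4C3 and 30.3 in the first window of OR5AN1. In the data 9213 of 80351 windows passed, which eases the adjusted threshold, and a difference of -48.2 points passed at OR4S1. The simulated counts therefore do not measure what the test can find in the data. The 20 kb count fell to 0 without any 1 of the untreated libraries 1, 2 or 3 or of day 28 replicates 1 or 2, to 7 without day 28 replicate 4, and rose to 24 without either day 7 library and to 26 without either day 14 library.

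In 100 kb bins a larger share passed at day 28, though the shift was not larger. The median difference was 29.4 points in size in receptor bins, against 31.4 in receptor windows of 20 kb. Of 39 tested receptor bins 22 changed (56.4%, against 46.7% of all bins), 11 higher (23% of all) and 11 lower (23.7% of all). Over the genome 9018 of 9022 changed bins moved toward 0, and here all 22 did. Without untreated replicate 2 the count was 14. The 22 bins hold 49 of the 94 genes in tested bins. All 5 tested bins of the class I cluster changed, of 19 in that cluster. The bin of OR51B5, OR52H1 and OR52B6 had -42.7, -70.0 and -54.6 in untreated libraries and 7.7, 6.0, -28.8 and -23.4 at day 28, with no overlap. All bins of the OR4 cluster (3 of 3), of OR10A5 to OR2D3 (2 of 2 tested) and of OR5AN1 to OR10V1 (4 of 4) changed as well. OR10A5 and its neighbours had 69.8, 76.2 and 74.9 in untreated libraries and 4.9, 3.5, 35.5 and -1.7 at day 28. That fall, of -63.1 ± 11.4 points (SE; adjusted p = 0.000168, limma), was matched in size by the bin of OR6X1 at the far end of the long arm. OR6X1 had 88.5, 90.9 and 85.2 in untreated libraries and 6.7, 23.4, 41.8 and 26.4 at day 28, again without overlap, a difference of -63.7 ± 12.4 points (SE; adjusted p = 0.000263, limma).

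Within the largest class II cluster the bins that changed were those of strongest untreated polarity. Only 3 of its 13 tested bins passed at day 28, the 3 most negative ones. OR5M11 and OR5M10 went from -62.2 ± 4.7 (SD, n = 3) to -28.4 ± 10.9 (SD, n = 4), OR5M1 and its neighbours from -75.9 ± 9.1 to -31.6 ± 12.1, and OR9G1 with OR9G4 from -81.3 ± 8.7 to -44.0 ± 7.7. The bin of OR8U3 went from -46.6 ± 15.4 to -22.5 ± 5.2 and missed the threshold (adjusted p = 0.061, limma). At OR8K3 the means were -22.7 and -23.1, and at OR5W2 they were 1.3 and 4.2. The bin of OR5AS1 and OR8I2 moved away from 0, from 5.8 ± 11.8 to -15.4 ± 11.7, and did not pass (adjusted p = 0.053, limma). A bin near 0 in untreated cells has little room to move toward 0, so a missing call there is not a sign of stability.

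**Figure D4:**
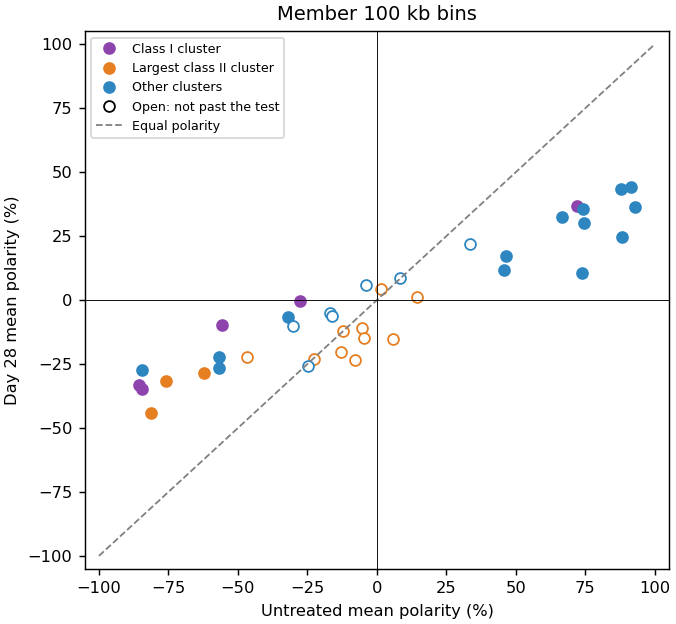
Mean polarity (%) at day 28 (4 libraries) against untreated cells (3 libraries) for the 39 tested receptor bins of 100 kb, with the dashed line where both would be equal. Filled points passed the test and open ones did not; the filled points at both ends lie between the dashed line and 0, and most open points, many of the largest class II cluster, lie near the centre.

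Day 7 and day 14 shared the untreated libraries with day 28, so the 3 comparisons are not independent. At day 7, 0 of 82 receptor windows passed with limma (1.1% of all windows did), and 22 had an unadjusted p under 0.05 (20.7% of all). In 100 kb bins 14 of 39 changed at day 7 (35.9%, against 23.7% of all), 10 higher (12.1% of all) and 4 lower (11.7% of all). All 14 moved toward 0, as did 4541 of the 4586 bins that changed over the genome. OR4S1, OR4C3 and OR4C5 stood at 93.3, 98.1 and 87.1 in the untreated libraries of this bin and at 34.3 and 34.5 at day 7, so both day 7 libraries were low and close together. The bin of OR8G1 and OR8G5 passed with day 7 libraries at 55.6 and -27.3, on both sides of 0, of which the first lies far from the untreated -20.3, -22.0 and -32.4. The count of bins at day 7 fell to 3 without untreated replicate 1, to 1 without untreated replicate 2, to 4 without day 7 replicate 2, and to 9 without untreated replicate 3, day 7 replicate 1 or day 28 replicate 2.

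At day 14, 1 of 82 windows passed (0.631% of all), with 9 at an unadjusted p under 0.05 (17.8% of all). It was OR52B6 (chr11:5580001-5600000), at the initiation zone of the class I cluster, with -13.0, -53.3 and -9.8 in untreated libraries and 42.9 and 100.0 at day 14 (difference 96.8 ± 22.7 points, SE; adjusted p = 0.0438, limma). Both day 14 libraries had turned positive. At day 28 the same window had 0.0, -7.7, -7.3 and 0.0, and at day 7 it had -33.3 and -22.2. In bins 5 of 39 changed at day 14 (12.8%; 13.4% of all), all of them higher (6.71% of all). The change at OR52B6 was lost without any 1 of the untreated libraries, day 14 replicate 2, day 28 replicates 2 or 3 or either resistant line. The count of bins fell to 0 without untreated replicate 2, to 2 without untreated replicate 1 or day 14 replicate 1, and to 3 without day 28 replicate 2 or 3.

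The resistant lines were growing in the drug. Against untreated cells 0 of 82 receptor windows passed with limma (0% of all), with 6 at an unadjusted p under 0.05 (10.8% of all). Of the 45 windows over 50 in size, chosen on the untreated values, 45 had a resistant mean nearer to 0, as did 99.8% of such windows over the genome. In bins 1 of 39 passed (2.56%; 6.98% of all) and 16 had an unadjusted p under 0.05 (41.0%, against 34.7% of all bins). That bin held OR5AN1, with -74.5, -62.3 and -33.8 in untreated libraries and -9.2 and -4.7 in lines 5 and 10 (difference 49.9 ± 12.3 points, SE; adjusted p = 0.021, limma). It was lost without untreated replicate 1 or 2 or without line 5, while 12 bins passed without line 10, 4 and 3 without day 14 replicates 1 and 2, and 2 without either day 7 library. Against day 28, 0 of 82 windows (0% of all) and 0 of 39 bins (0% of all) passed, with 4 windows (1.48% of all) and 2 bins (5.13%, against 2.15% of all bins) at an unadjusted p under 0.05. At OR4S1 line 5 had 41.8 and line 10 had 70.0, and at OR6X1 they had 24.7 and 61.0. Line 10 stood nearer to untreated cells than line 5 in both bins, and with 1 library a line this was not tested.

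The size of the whole pattern was summed up as an amplitude, the slope of a library's polarity over the 82 tested receptor windows on the mean of untreated pairs that leave that library out. A value of 1 means the untreated contrast and 0 means none. The untreated libraries had 1.03, 1.08 and 0.790. Day 7 libraries had 0.60 and 0.288, day 14 libraries 0.435 and 0.816, day 28 libraries 0.301, 0.292, 0.50 and 0.450, and resistant lines 5 and 10 had 0.382 and 0.755. All day 28 libraries were below all untreated ones, whereas day 14 replicate 2 lay within the untreated range and line 10 just below it. The day 28 mean of 0.385 ± 0.105 (SD, n = 4) was 39.9% of the untreated mean, against 35.2% over all windows, 36.6% over the rest of chromosome 11 and 34.1% over receptors elsewhere. The resistant mean was 58.8% of untreated, against 49.4% over all windows. In bulk libraries fewer replicating cells and a flatter profile in each cell cannot be told apart.

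**Figure D5:**
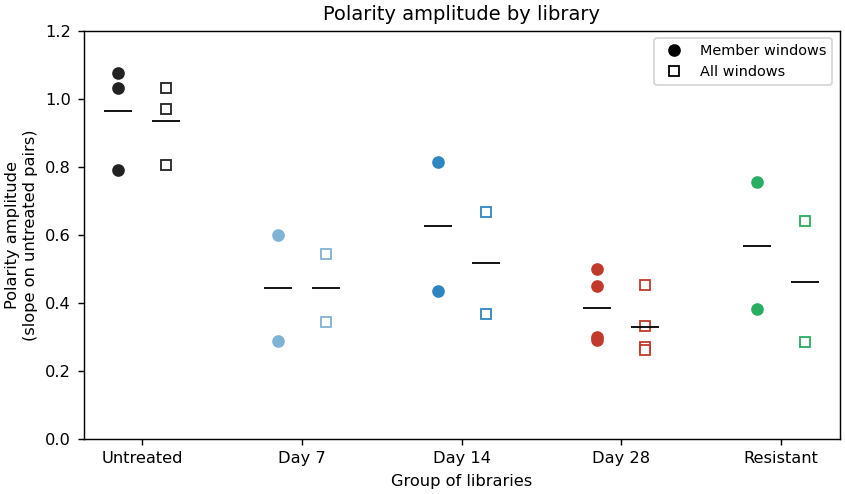
Polarity amplitude (slope on untreated pairs, no unit) of each library, by group. Filled circles are the 82 tested receptor windows, open squares all 80351 tested windows, and short lines group means; receptor values lie near those of the genome, with day 28 circles between 0.292 and 0.50 and untreated circles between 0.790 and 1.08.

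Amplitudes of single clusters used all receptor windows with a value in the library and in the untreated ones, tested or not. The windows therefore differ between libraries, with 41 for day 28 replicate 4 and 54 for replicate 2 in the class I cluster. In the 5 clusters with 9 or more receptor windows the day 28 amplitude is given as a percentage of untreated. It was 39.1% in the class I cluster, 27.8% in the largest class II cluster and 32.0% at OR9Q1 to OR5B21. At OR5AN1 to OR10V1 it was 29.0%, and at OR6X1 to OR8A1 it was 33.4%. The day 28 libraries of the largest class II cluster ran from -0.01 to 0.44, a range that holds the day 28 means of the other 4 clusters named here. In the clusters of 7 or fewer windows a slope is poorly determined: at day 28 it was 1.04 ± 1.49 (SD, n = 4) at OR2AG2 to OR2D3 and 0.866 ± 0.835 (SD, n = 4) in the OR4 cluster, where the untreated libraries themselves had -1.22 ± 0.26 (SD, n = 3), so these clusters are not compared.

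At the initiation zones the rise flattened too. At OR52B6 (chr11:5500001-5760000) it was 148, 159 and 132 points in untreated libraries and 31.9, 27.2, 40.3 and 32.1 at day 28. Line 10 kept 95.4 points there and line 5 had 17.8. At OR10V1 the day 28 rise was 67.2, 62.9, 95.8 and 74.2 points, and no day 28 library reached the lowest untreated value of 159. Among the termination zones, the fall at OR8G5 (chr11:124160001-124380000) was -113, -108 and -61.4 points in untreated libraries and 1.0, -5.0, -37.0 and 54.0 at day 28. With zones called from pairs of untreated libraries and measured in the library left out, the mean rise over initiation zones of the clusters was 100.8 ± 16.4 points (SD, n = 3) untreated and 30.3 ± 7.4 (SD, n = 4) at day 28, against 87.7 and 25.0 over all zones.

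Other gene lists were set beside the receptors at day 28. Of the windows over receptors elsewhere 20 of 127 changed (15.7%), and of chromosome 11 as a whole 460 of 4353 (10.6%). Genes of olfactory signalling, which carry the receptor signal in the neuron, had 14 of 130 windows changed (10.8%), near the 11.5% of all windows, and these lay in 5 of 19 tested genes. GNAL (the olfactory G protein), EBF1 (a factor that binds receptor promoters), ANO2 (a chloride channel) and RIC8B (which helps fold the G protein) had higher polarity and REEP1 lower polarity. The marker OMP and the channel gene CNGA4, both on chromosome 11, did not pass, with differences of -28.8 and 21.9 points. Of 23 TRIM genes on chromosome 11, 9 had a tested window, and 1 of their 16 windows changed (6.25%), at TRIM29. The 20 protein-coding genes inside the clusters that are not receptors include 8 of these TRIM genes. Of the 20, 7 were tested (4 of them TRIM genes) and 0 had a change at an adjusted p under 0.05 with limma. Since a window belongs to its replication domain, these counts describe regions and not the genes' activity.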

How the data were processed

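TrAEL-seq was measured in 13 PC9 libraries. The submitters' processing notes name Bowtie2 2.4.1 and Trim Galore 0.6.5 as tools and GRCh38 and GRCm38 as builds, and chromosome ends in the table are those of GRCh38. The values the authors deposited are strand polarities in percent for windows of 20 kb every 10 kb, as read from the values. The sources used here give neither read counts, nor their minimum per value, nor the positive strand, so no counting interval could be made.

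The analysis took the 151538 complete windows that do not overlap, on the autosomes and X. Windows with a value in all 13 libraries (80351) were fitted with limma 3.58.1 (R 4.3.3; lmFit, eBayes with trend) in 1 model of 5 groups, with Benjamini-Hochberg adjustment over all of them at 0.05. The same fit was run on 100 kb bins (19312). The code was tested on simulated data. Polarity needs no scaling for depth. The labels state no pairing, so numbers were not used as pairs. Deviations of same-numbered libraries from their group means had correlations from -0.0739 to 0.0691. In groups of 2 libraries these deviations mirror each other, so the correlations are a weak check of pairing.

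The members and lists were chosen with earlier results of these data known. Named genes were, in each cluster of 3 or more, the first and last with a tested window and those in its highest and lowest tested window, plus 1 gene for each changed window. Other genes and the bins named were chosen after their values were seen.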

Additional observations from a re-analysis of the deposited data

Results flagged for a closer look

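In the window of OR4D5 (chr11:123920001-123940000) day 28 replicate 1 stood apart, at -81.8 against 27.3, 33.3 and 33.3 in the other day 28 libraries. Its gap to the nearest of them was 0.947 of the group's range, above Dixon's critical value for 4 libraries. Of 42 sets of 4 day 28 values checked in this way this was the only one, and chance gives about 1 in 20. No read count stands behind the value.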

How the results depend on the processing

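At day 28 the 14 changed windows became 22 changed bins of 39 at 100 kb, 33 windows with array weights, 31 with only the 2 groups compared in the fit, and 0 both with libraries scaled to 1 amplitude together with array weights and with a replicate block. At least 1 value a group gave 15, a grid shifted by 10 kb gave 10, whole cluster spans 16, no day 28 replicates 3 and 4 gave 12, and those replicates placed at day 7 gave 15. At day 7 the 0 windows became 1 with at least 1 value a group, 14 in bins and 2 on the shifted grid. At day 14 the 1 window became 5 in bins and 2 over cluster spans, and 0 on the shifted grid, with array weights, with only the 2 groups compared, without day 28 replicates 3 and 4, with scaling and weights, and with the replicate block. For the resistant lines 0 became 1 in bins and 4 with only the 2 groups compared. Leaving out 1 library gave 0 to 3 windows at day 7, 0 to 2 at day 14, 0 to 26 at day 28 and 0 to 0 for the resistant lines against either group.

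In bins, alternatives chosen after seeing the data gave at day 7 9 (from 14) without day 28 replicates 3 and 4 and 5 with the replicate block, at day 14 2 (from 5) with array weights, 3 without those replicates and 2 with the block, and for the resistant lines 14 (from 1) with array weights and 2 with those replicates at day 7. Leaving out 1 library gave 1 to 18, 0 to 7, 14 to 24 and 0 to 12 bins, and 0 to 0 for resistant lines against day 28. The amplitude as a percentage of untreated ran from 29.9 to 62.1 at day 7, 45.1 to 84.4 at day 14, 36.0 to 43.1 at day 28 and 39.5 to 78.2 in the resistant lines. The day 28 difference changed sign with scaling and array weights at OR4X1 (21.4), OR4S1 (27.4) and OR5A1 (-8.73). Scaled values are not held within the range of polarity, so these signs are not read as measured changes. The other 11 windows kept their direction in all 19 settings, and each was called in 6 to 12 of them. At OR4C3 and OR4C5 the difference came as near to 0 as -0.615 and -0.668 points, so almost none of the fall was left there. The cause of these shifts was not tested. The unknown depth, the 2 libraries at day 7, at day 14 and of resistant lines, and the missing values of day 7 replicate 1 limit all counts.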
